A study of Mus musculus with 11 samples.

Results

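The 6 GATA transcription factor genes, Gata1 to Gata6, were followed through the RNA-seq of mouse embryonic stem cells (mESCs) and mouse embryonic fibroblasts (MEFs) with and without Atxn7l3. They were picked by gene name, and they make up 6 of the 34570 genes listed in the mESC or the MEF table. Gata4 and Gata6 were named in that choice because their transcripts rise in MEFs labelled Atxn7l3-/-. The members were thus chosen on their levels in the comparison of MEF genotypes, and those levels are given below as a description, with no test. Of the other comparisons, that of mESC genotypes and that of WT MEFs with WT mESCs were not used in the choice and were tested.

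ATXN7L3 is an adaptor protein of the SAGA deubiquitylation module, which removes monoubiquitin from histone H2B, and the study asked what its loss does to transcription in cells of different developmental state. All cells came from a cross of DBA/2 and C57BL/6 mice. The mESC libraries comprised 2 Atxn7l3+/+ (WT) and 3 Atxn7l3-/- lines derived from blastocysts. These lines were grown on feeder cells at first and then without them, in serum with LIF and the inhibitors PD0325901 and CH99021. The MEF libraries comprised 3 Atxn7l3+/+ (WT) cultures and 3 labelled Atxn7l3-/- from E10.5 embryos without head and gastrointestinal tract, so that other mesodermal organs stayed in the starting material. No other treatment was given, and the replicates are numbered 1 to 3 here as in the labels.

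GATA factors are zinc finger proteins that bind the DNA letters for which they are named. GATA1, GATA2 and GATA3 are best known from blood and lymphoid development, and GATA2 and GATA3 also from trophoblast. GATA4, GATA5 and GATA6 act in heart, gut and the coelomic lining, and GATA4 and GATA6 are early regulators of primitive endoderm, the lineage that naive embryonic stem cells can give rise to beside epiblast. ZFPM1 and ZFPM2 (FOG proteins) bind GATA factors and modify their activity.

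Of the 6 genes, 4 (Gata1, Gata2, Gata3 and Gata5) had a promoter window in the RefSeq table of GRCm38.p6, which is the build called mm10. The windows of Gata5 and Gata1 are shown because these genes sat at the opposite ends of the pattern described below, Gata5 with a transcript in the labelled Atxn7l3-/- MEFs and near the floor elsewhere, and Gata1 with a transcript in mESCs and near the floor in MEFs. Both are written from 5′ to 3′ on the minus strand, up to the annotated start. The Gata5 stretch covers chr2:180334700-180334929, leaves out 20 bases of annotated exon, and lies outside the gene. The Gata1 stretch covers chrX:7967911-7968160 and lies within the annotated Gata1 gene, between exons. Capitals mark GC boxes (GGGCGG) and E-boxes (CACGTG), which were searched on both strands together with the TATA letters TATAAA and with the GATA core inside a longer word, spelled AGATAA in one form, AGATAG in another, TGATAA in a further form and TGATAG in the last.
Gata5: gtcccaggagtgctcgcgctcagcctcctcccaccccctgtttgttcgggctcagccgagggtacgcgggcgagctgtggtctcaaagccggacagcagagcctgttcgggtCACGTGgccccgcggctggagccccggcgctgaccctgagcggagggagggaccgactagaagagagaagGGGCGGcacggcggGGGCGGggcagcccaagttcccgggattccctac
Gata1: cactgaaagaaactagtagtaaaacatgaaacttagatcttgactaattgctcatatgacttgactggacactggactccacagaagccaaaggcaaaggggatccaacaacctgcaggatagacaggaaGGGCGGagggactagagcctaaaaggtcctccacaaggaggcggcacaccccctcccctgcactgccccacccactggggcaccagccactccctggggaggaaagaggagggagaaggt
The Gata5 stretch held 2 GC boxes, 1 E-box and 21 CpG dinucleotides in 230 bases, with a GC content of 70.4%. The Gata1 stretch held 1 GC box and 2 CpG dinucleotides in 250 bases, with a GC content of 54.0%. Over all 32851 windows in the table, each cut to its 250 upstream bases, 32.7% held a GC box, 6.0% an E-box, 12.4% the TATA letters and 26.5% a GATA spelling, and the median was 6 CpG dinucleotides. The windows of Gata2 and Gata3 held 22 and 19 CpG dinucleotides. Neither the TATA letters nor a GATA spelling occurred in these windows of Gata1, Gata2, Gata3 or Gata5.

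Library totals ran from 34515342 to 49602605 counts, so that 3 counts, taken here as the floor of detection, correspond to 0.0605 to 0.0869 CPM, a count scaled to library size. Levels in CPM are the deposited raw counts scaled by TMM over all 11 libraries. Atxn7l3, the targeted gene, was at 197 and 203 CPM in the WT mESC libraries and at 3.34, 1.61 and 0.833 CPM in Atxn7l3-/- mESCs (log2 fold change −6.65 ± 0.53 SE, adjusted p = 0.0211, edgeR's quasi-likelihood test). In MEFs it was at 86.6, 117 and 104 CPM in WT and at 56.5, 55.5 and 73.3 CPM in the libraries labelled Atxn7l3-/-. The MEF difference, a log2 fold change of −0.74 ± 0.21 SE, did not pass the same test (adjusted p = 0.0715). Over 13 alternatives the adjusted p ran from 0.0227 with DESeq2 to 0.235. Every labelled library lay below every WT library, so the direction went with the label, but much of the transcript was kept. These libraries are called the labelled Atxn7l3-/- MEFs throughout. The paper reports that ATXN7L3 protein was undetectable in its Atxn7l3-/- MEFs and that monoubiquitylated H2B rose there. Of 8 mESC markers, 8 were above the floor in every mESC library and Pou5f1 was at 0 in every MEF library, while 10 of 10 fibroblast markers were above the floor in every library of both cell types, summing to 59.4 to 443 CPM in mESCs and to 10683 to 46244 CPM in MEFs. Summed counts of the Y-linked genes Ddx3y, Eif2s3y, Kdm5d and Uty were 269 and 64 in Atxn7l3-/- mESC replicates 1 and 2 and 34 in WT MEF replicate 3, against 5957 to 20907 in the other 8 libraries. The labels give no sex, and these libraries thus stand apart within their groups.

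Among the GATA genes, Gata4, Gata5 and Gata6 had by far their highest levels in the labelled Atxn7l3-/- MEFs, Gata2 and Gata3 were present in all 4 groups, Gata3 with its lowest levels in those same MEFs, and Gata1 was a low transcript of mESCs. In mESCs no GATA gene passed the test between genotypes. The members are described below in the order of their roles, first the cardiac and endodermal GATA4, GATA5 and GATA6 and then the GATA1, GATA2 and GATA3 subgroup.

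**Figure D1:**
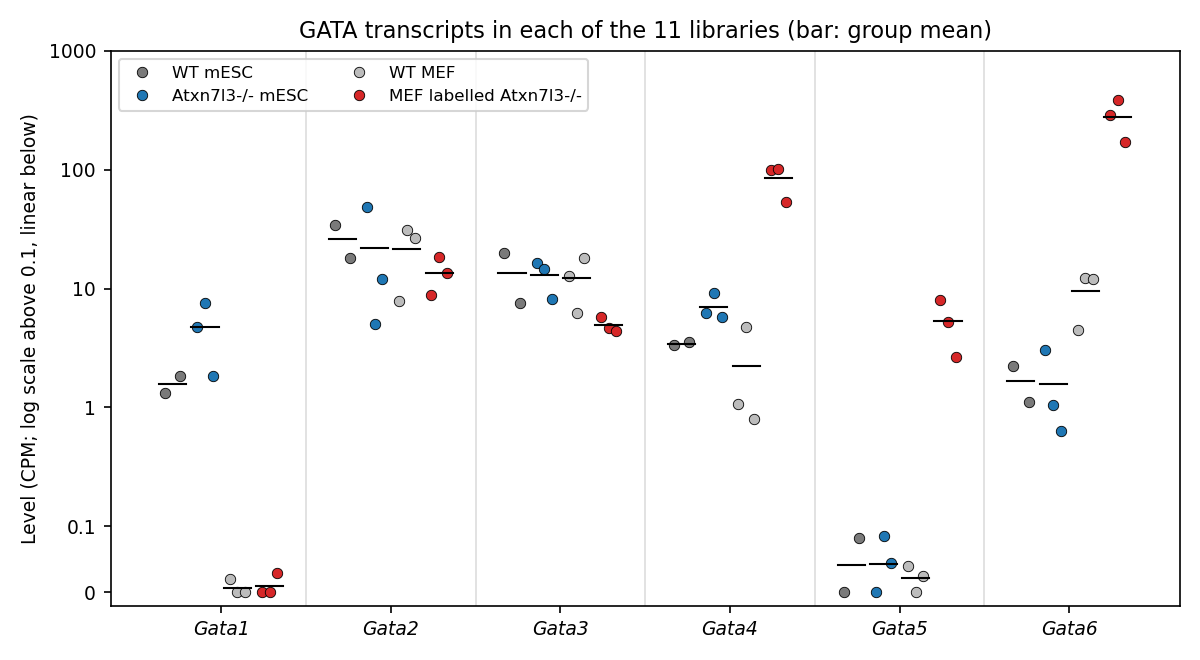
Level of each GATA gene in CPM (vertical axis, logarithmic above 0.1 and linear below) in the 2 WT mESC, 3 Atxn7l3-/- mESC, 3 WT MEF and 3 labelled Atxn7l3-/- MEF libraries; each point is a library and each bar a group mean. Gata4, Gata5 and Gata6 are highest in the 3 labelled Atxn7l3-/- MEF libraries, and Gata1 lies near 0 in all 6 MEF libraries.

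Gata4 (ENSMUSG00000021944; mm10 chromosome 14, 63198922 to 63271692, minus strand; 7 exons in its longest coding transcript) encodes a factor of heart, gonad and endoderm. In WT MEFs it was at 1.06, 4.78 and 0.805 CPM, from 52, 153 and 33 counts. In the labelled Atxn7l3-/- MEFs it was at 99.0, 102 and 53.5 CPM, from 3729, 3983 and 1787 counts. All 3 labelled libraries lay above all 3 WT libraries, and WT replicate 2 stood above the other WT libraries. The group means were 2.22 ± 2.23 and 84.8 ± 27.1 CPM (SD, n = 3 each), a ratio of 38.3 and a fitted log2 fold change of 5.26. Without WT replicate 2 the log2 fold change was 6.49, and over the leave-one-out fits it ran from 4.87 to 6.49.

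Gata6 (ENSMUSG00000005836; mm10 chromosome 18, 11052510 to 11085635, plus strand; 7 exons) encodes a regulator of primitive endoderm, gut and cardiac development. It was at 4.49, 12.2 and 12.0 CPM in WT MEFs and at 286, 382 and 172 CPM in the labelled Atxn7l3-/- MEFs. The groups did not overlap, and replicate 3 was the lowest of the labelled libraries. The means were 9.57 ± 4.4 and 279.9 ± 105 CPM (SD, n = 3 each), a ratio of 29.3 and a log2 fold change of 4.86. With each library's trend over GC content taken out, the log2 fold change was 5.71.

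Gata5 (ENSMUSG00000015627; mm10 chromosome 2, 180325133 to 180334699, minus strand; 6 exons) encodes a factor of the heart valves and of epithelia. It had 2, 0 and 1 counts in the WT MEF libraries and 302, 205 and 88 counts in the labelled Atxn7l3-/- MEFs, that is 8.02, 5.24 and 2.63 CPM. In every library of the other 3 groups it was at 0 to 4 counts, near the floor. The summed counts of 595 and 3 gave a depth-scaled ratio of 219.6 (95% exact interval of counting error, 74.8 to 1068). This interval leaves out the spread between libraries and is no test, since the members were chosen on this comparison. Gata5 passed the filter on low counts in MEFs only through the labelled group. Its mean there was 5.30 ± 2.69 CPM (SD, n = 3).

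Among the 3 labelled libraries, replicate 3 was lowest for Gata4, Gata5 and Gata6. Over the 6 MEF libraries the Pearson correlation of log2 CPM was 0.97 between Gata4 and Gata6, 0.94 between Gata4 and Gata5 and 0.96 between Gata5 and Gata6. With Gata3 the correlation was −0.90 for Gata4 and −0.79 for Gata6. These values describe 6 points that fall into separate clusters by genotype.

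**Figure D2:**
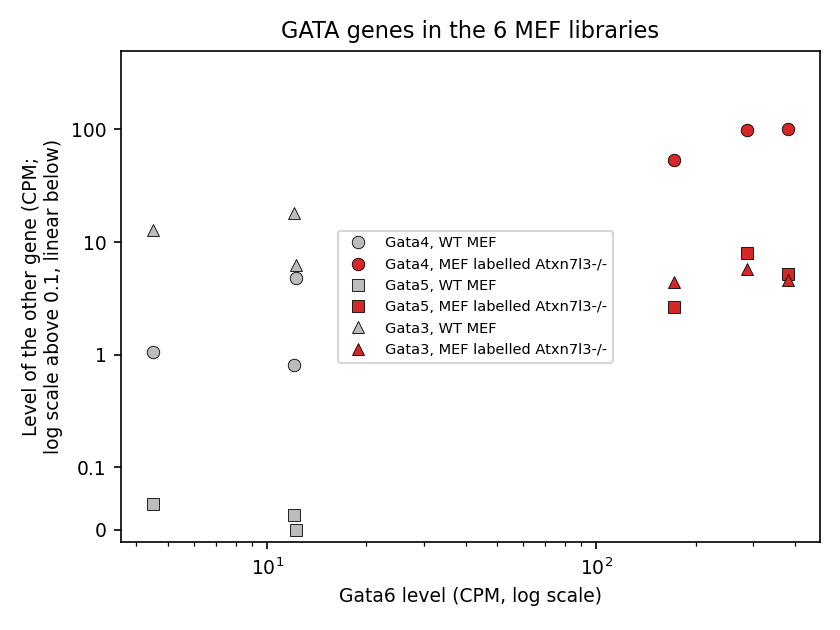
Levels of Gata4, Gata5 and Gata3 (vertical axis, CPM, logarithmic above 0.1 and linear below) against that of Gata6 (horizontal axis, CPM, logarithmic) in the 6 MEF libraries, 1 point per gene and library. The 3 labelled Atxn7l3-/- libraries sit between 172 and 382 CPM of Gata6, and the 3 WT libraries between 4.49 and 12.2 CPM.

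Counted over the members, 3 of 6 had every labelled Atxn7l3-/- MEF library above every WT library, where 20.1% of the 15958 genes tested in MEFs did. The choice of members rests on this comparison, so nothing is read from that count. The result in bulk RNA cannot tell a change per cell from a change in the share of cells of a type. Summed levels of 5 macrophage and blood markers, all above the floor in all 6 MEF libraries, were 497 to 979.8 CPM in WT and 823 to 6005 CPM in the labelled Atxn7l3-/- MEFs, with Lyz2 at 351 to 676 and at 720.0 to 5393 CPM. In labelled replicate 3 that sum, 823 CPM, lay within the range of the WT libraries, while its Gata4 and Gata6 levels were 53.5 and 172 CPM. The 10 fibroblast markers summed to 10683 to 46244 CPM in WT and 19116 to 27922 CPM in the labelled Atxn7l3-/- MEFs. Prrx1 among them was lower without overlap, at 466 to 573 and at 6.17 to 341 CPM. Vim was also lower, at 3131 to 5962 and at 1345 to 2831 CPM. S100a4 was higher without overlap, at 42.9 to 188 and at 717 to 941 CPM, and the ranges of the other markers overlapped. The part of the macrophage and fibroblast shares in the GATA levels was not tested.

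Gata2 (ENSMUSG00000015053; mm10 chromosome 6, 88193891 to 88207032, plus strand; 6 exons), a factor of blood stem cells and trophoblast, was at 7.83, 30.9 and 26.4 CPM in WT MEFs and at 8.84, 18.5 and 13.4 CPM in the labelled Atxn7l3-/- MEFs. The groups overlapped, and the log2 fold change was −0.68, or 0.12 once the trends over GC content were taken out. Gata3 (ENSMUSG00000015619; mm10 chromosome 2, 9857078 to 9890034, minus strand; 6 exons), a factor of T cells and trophoblast, was at 12.8, 6.22 and 18.0 CPM in WT MEFs and at 5.73, 4.63 and 4.4 CPM in the labelled Atxn7l3-/- MEFs. All 3 labelled libraries were below all 3 WT libraries, with a log2 fold change of −1.35 and leave-one-out values from −1.65 to −0.96. Gata1 (ENSMUSG00000031162; mm10 chromosome X, 7959260 to 7978071, minus strand; 6 exons), the erythroid and megakaryocyte factor, had 1, 0 and 0 counts in WT MEFs and 0, 0 and 1 counts in the labelled Atxn7l3-/- MEFs, which is at the floor, and no fold is given.

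In mESCs the same genes were tested between 2 WT and 3 Atxn7l3-/- libraries, and 5 of the 6 passed the filter on low counts. None of the 5 was called at an adjusted p of 0.05 and a change of at least 2-fold with edgeR's quasi-likelihood test, where 2.8% of all 17800 genes tested were called higher and 3.41% lower. At an unadjusted p under 0.05 there were 2, Gata1 and Gata4, and the DESeq2 Wald test called 1, Gata4. Every Atxn7l3-/- library lay above every WT library for these same 2 genes, an arrangement found for 23.0% of all genes tested. The mESC cultures differed in a further marker list, since the 10 fibroblast markers summed to 59.4 and 168 CPM in WT and to 310 to 443 CPM in Atxn7l3-/- mESCs. Its part in these levels was not tested.

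**Figure D3:**
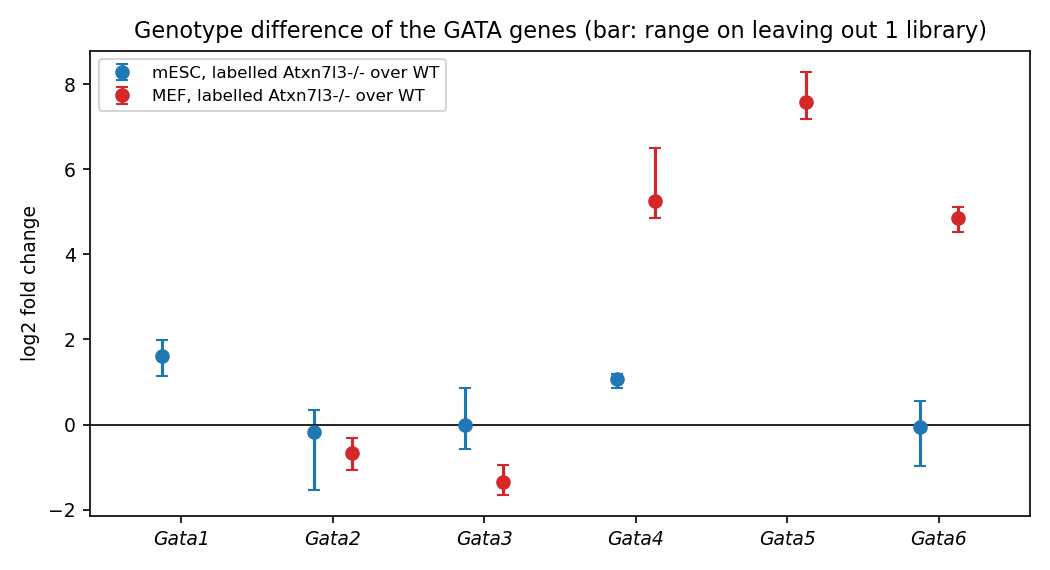
Log2 fold change of the labelled Atxn7l3-/- over the WT group for each GATA gene in mESCs and in MEFs (vertical axis, log2 units); points are fitted values and bars the range on leaving out 1 library at a time. In mESCs the ranges of Gata2, Gata3 and Gata6 span 0 and that of Gata4 is 0.87 to 1.19, while in MEFs Gata4 runs from 4.87 to 6.49 and Gata6 from 4.53 to 5.12. Gata5 in mESCs and Gata1 in MEFs were too low to fit, and the Gata5 value in MEFs rests on 3 counts in the WT group.

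Gata4 was at 3.36 and 3.54 CPM in WT mESCs and at 6.19, 9.20 and 5.72 CPM in Atxn7l3-/- mESCs. The log2 fold change was 1.07 ± 0.39 SE, with an adjusted p of 0.119 from edgeR. The Atxn7l3-/- libraries were all higher and the change exceeded 2-fold, but the adjusted p did not pass. With DESeq2 the log2 fold change was 1.04 and the adjusted p 0.0188, and over all 12 alternatives the adjusted p ran from 0.0188 to 0.41. Side by side, Gata4 thus differed by 1.07 on the log2 scale in mESCs and by 5.26 in MEFs.

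Gata1 was at 1.34 and 1.83 CPM in WT mESCs and at 4.73, 7.59 and 1.85 CPM in Atxn7l3-/- mESCs. Replicates 1 and 2 stood well above WT, and replicate 3 lay just above WT replicate 2. The log2 fold change was 1.61 ± 0.63 SE with an adjusted p of 0.139 from edgeR. Without Atxn7l3-/- replicate 3 the log2 fold change was 1.99 and the adjusted p 0.0448, and over 12 alternatives the adjusted p ran from 0.0448 to 0.744.

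Gata1 is X-linked, and the replicates in which it was high were those with few Y-linked counts, 269 and 64, against 18614 in replicate 3 and 7658 and 17602 in WT mESCs. Counts of Xist, the transcript that silences an X chromosome, were 1940, 2141 and 106 in the Atxn7l3-/- and 510 and 1119 in the WT libraries. With the presence of Y-linked transcripts as a term in the model, an alternative added after the data were seen, the log2 fold change of Gata1 was 0.30. Atxn7l3-/- replicate 3 is the 1 Atxn7l3-/- library with such transcripts, so under that term the genotype difference rests on it alone against both WT libraries, and the value restates its level. The 680 X-linked genes tested had a median log2 fold change of 0.47 between mESC genotypes without that term and −0.30 with it, against 0.03 and −0.02 for 17094 autosomal genes. The medians with the term rest on Atxn7l3-/- replicate 3 in the same way. The part of the X-linked and Y-linked differences in the Gata1 levels was not tested. Hdac6, the coding neighbour of Gata1 and a cytoplasmic deacetylase, was called higher with a log2 fold change of 1.49 ± 0.24 SE (adjusted p = 0.0234), and it was above WT in all 3 Atxn7l3-/- libraries. With the term, where replicate 3 again stood alone, its log2 fold change was 1.12, and over 12 alternatives its adjusted p ran from 1.67e-06 to 0.175.

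**Figure D4:**
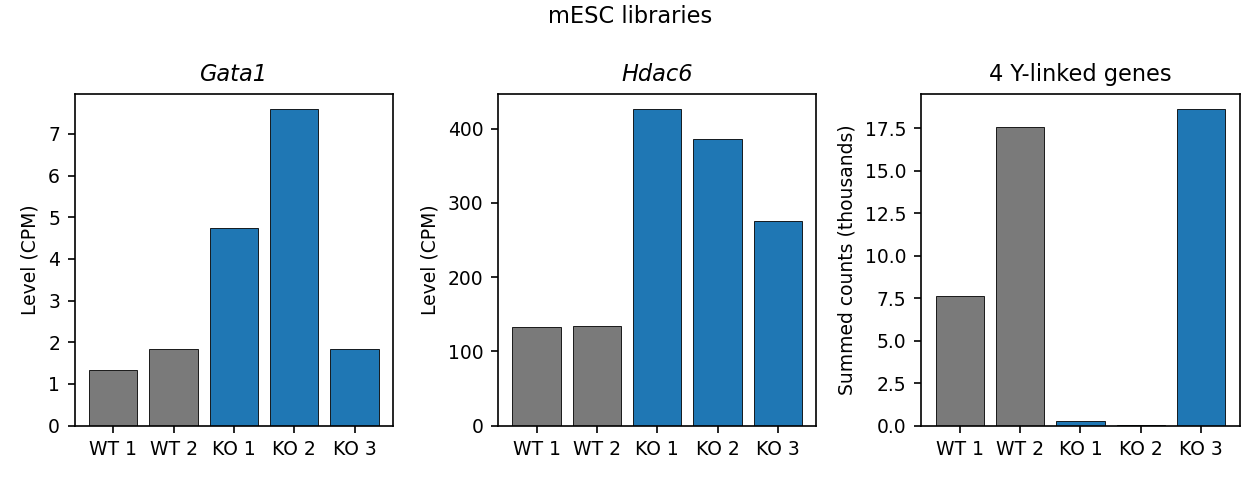
Levels of Gata1 and Hdac6 (CPM) and summed counts of 4 Y-linked genes (in units of 1000 counts) in the 2 WT and 3 Atxn7l3-/- (KO) mESC libraries, 1 bar per library from 0. Gata1 is at 4.73 and 7.59 CPM in KO replicates 1 and 2, whose Y-linked sums are 269 and 64 counts, and at 1.85 CPM in KO replicate 3.

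Gata2 was at 33.9 and 18.2 CPM in WT mESCs and at 49.0, 5.08 and 12.1 CPM in Atxn7l3-/- mESCs. Its log2 fold change was −0.18 ± 0.82 SE (adjusted p = 0.905), and the Atxn7l3-/- libraries spanned the WT libraries on both sides. Gata3 was at 19.8 and 7.50 CPM in WT and at 16.3, 14.7 and 8.24 CPM in Atxn7l3-/- mESCs, with a log2 fold change of −0.02 ± 0.48 SE (adjusted p = 0.982). Gata6 was at 2.25 and 1.11 CPM in WT and at 3.03, 1.05 and 0.631 CPM in Atxn7l3-/- mESCs, with a log2 fold change of −0.05 ± 0.74 SE (adjusted p = 0.97). These 3 genes overlapped between genotypes. Gata5 had 0 and 4 counts in WT and 0, 4 and 2 counts in Atxn7l3-/- mESCs and was not tested.

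WT MEFs and WT mESCs were compared in a fit of all 11 libraries, in which 47.7% of 19326 genes were called in either direction. Of the 6 members, Gata1 and Gata6 were called. Gata1 was lower in WT MEFs, with 159 counts in the 2 WT mESC libraries against 1 in the 3 WT MEF libraries, a depth-scaled ratio of 192 (95% exact interval of counting error, 34.0 to 7636; adjusted p = 0.000347). Gata6 was higher in WT MEFs, at 9.57 ± 4.4 CPM (SD, n = 3) against 1.68 ± 0.81 CPM (SD, n = 2), with a log2 fold change of 2.5 ± 0.70 SE (adjusted p = 0.0114). Without WT mESC replicate 2 the value for Gata6 was 2.08 and no longer passed (adjusted p = 0.1035, range over 12 alternatives 0.000753 to 0.1035).

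The remaining members did not pass between the WT cell types. Gata4 gave a log2 fold change of −0.65 ± 0.63 SE (adjusted p = 0.403). Its WT MEF libraries spread from 0.805 to 4.78 CPM around the WT mESC values of 3.36 and 3.54 CPM. Without WT MEF replicate 2 the log2 fold change of Gata4 was −1.88 and passed (adjusted p = 0.00318, range over 12 alternatives 0.00318 to 0.756). Gata2 gave −0.27 ± 0.82 SE (adjusted p = 0.801) and Gata3 −0.14 ± 0.53 SE (adjusted p = 0.835). Both groups of Gata5 were at or near the floor.

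Ordered by group mean, Gata4 went from the labelled Atxn7l3-/- MEFs (84.8 CPM) over Atxn7l3-/- mESCs (7.04 ± 1.88 CPM, SD, n = 3) and WT mESCs (3.45 ± 0.13 CPM, SD, n = 2) to WT MEFs (2.22 CPM). WT mESCs lay within the range of WT MEFs, and these neighbours did not differ beyond their spread. For Gata6 the order was labelled Atxn7l3-/- MEFs (279.9 CPM), WT MEFs (9.57 CPM), WT mESCs (1.68 CPM) and Atxn7l3-/- mESCs (1.57 ± 1.28 CPM, SD, n = 3), and both mESC groups overlapped. For Gata2 the means were 26.1 ± 11.1 CPM in WT mESCs (SD, n = 2), 22.1 ± 23.6 CPM in Atxn7l3-/- mESCs, 21.7 ± 12.2 CPM in WT MEFs and 13.6 ± 4.86 CPM in the labelled Atxn7l3-/- MEFs (SD, n = 3 each), and all neighbours in that order overlapped. For Gata3 they were 13.6 ± 8.69, 13.1 ± 4.29, 12.4 ± 5.91 and 4.92 ± 0.71 CPM in the same order, with the last group alone apart from its neighbour.

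Levels of different genes can be compared only per length of transcript. Divided by the median transcript length in the deposited table, the level per kb in WT mESCs was 26.8 CPM per kb for Gata3, 15.1 for Gata2, 2.34 for Gata1, 2.23 for Gata4, 0.527 for Gata6 and 0.0126 for Gata5. The deposited median lengths were 676 bases for Gata1 and 509 bases for Gata3, and their longest coding transcripts 1902 and 3215 bases. Divided by the longest coding transcript instead, Gata2 came first with 7.31 CPM per kb and Gata3 second with 4.24, followed by Gata4 with 1.01 and Gata1 with 0.833. In the labelled Atxn7l3-/- MEFs both scales put Gata6 first (87.6 and 86.6 CPM per kb) and Gata4 second (54.9 and 24.9). There Gata3 was at 9.67 and 1.53, Gata2 at 7.89 and 3.81 and Gata5 at 1.62 CPM per kb.

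Transcripts that overlap or flank the members were looked at next, since a gene and its neighbours may share reads or move together. The long intergenic noncoding gene 1010001N08Rik lies on the strand opposite to Gata6 and overlaps its start. It spans 11049087 to 11052567, while Gata6 starts at 11052510 by the deposited coordinates and at 11052064 by the GENCODE annotation. 1010001N08Rik had 7, 15 and 13 counts in WT MEFs and 886, 1345 and 375 counts in the labelled Atxn7l3-/- MEFs, a depth-scaled ratio of 82.5 (95% exact interval of counting error, 59.1 to 119). All 3 labelled libraries were above WT, and the log2 fold change was 6.21. No test is given, since Gata6, which 1010001N08Rik overlaps, was chosen on this comparison. The libraries were made with a stranded kit, but whether the counting used strand is not given in the sources used here, so reads of this gene and of Gata6 cannot be told apart where they overlap. Gata5os, which overlaps Gata5 on the opposite strand, had at most 3 counts in any library.

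Of the 12 nearest protein-coding genes, 10 were tested in mESCs and 3 were called, all higher, where 2.8% of all genes tested were. They were Hdac6 and Glod5 beside Gata1 and Neil2 beside Gata4, and of the X-linked genes, as Hdac6 and Glod5 are, 6.03% were called higher. Neil2, a DNA glycosylase of base excision repair on the same strand that starts 5066 bases beyond the 3′ end of Gata4, had 348 and 312 counts in WT and 1050, 958 and 1526 counts in Atxn7l3-/- mESCs. All Atxn7l3-/- libraries were above WT, with a log2 fold change of 2.12 ± 0.32 SE (adjusted p = 0.023). Glod5 had a log2 fold change of 2.85 ± 0.63 SE (adjusted p = 0.0412). With the term for Y-linked transcripts, where Atxn7l3-/- replicate 3 stood alone, the log2 fold change was 2.48 for Glod5 and 2.47 for Neil2. Over 11 alternatives the adjusted p of Glod5 ran from 3.11e-05 to 0.197. Glod5 was not called without Atxn7l3-/- replicate 2 (adjusted p = 0.0529). Without either WT mESC replicate, or without Atxn7l3-/- replicate 1, 0 of the 3 genes were called. In MEFs 8 of the 12 were tested, and edgeR called none, with 2 at an unadjusted p under 0.05 and 1 called by DESeq2. With the replicate block Slco4a1, an organic anion transporter gene beside Gata5 with a log2 fold change of −2.35 and an adjusted p of 0.0929, was called lower (adjusted p = 0.0219, range over 13 alternatives 0.00973 to 0.207). Mib1 and Rbbp8, which flank Gata6, had log2 fold changes of 0.41 ± 0.30 and 0.87 ± 0.26 SE there, and Neil2 1.15 ± 0.60 SE.

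Genes that act with the GATA factors or mark the tissues in which they work were taken as 6 lists with 99 genes in all. In MEFs, 69 of them were tested and 14 were called higher and 5 lower, where 4.62% of all 15958 genes were called higher and 4.31% lower. With the replicate block 14 were called higher and 9 lower, and leaving out 1 library gave 9 to 17 higher (9 without WT replicate 3) and 0 to 9 lower (0 without WT replicate 3 or labelled replicate 2). In mESCs, 71 were tested and 1 was called higher and 5 lower, where 2.8% and 3.41% of all genes were. The lists were compiled with the rise of Gata4 and Gata6 known and are not independent of it.

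The list of coelomic lining and gonadal genes held 10 of the 14 called higher in MEFs. Of its 15 genes, 14 were tested, 10 rose and none fell (0 lower also at an unadjusted p under 0.05 and with DESeq2), and the median log2 fold change of those tested was 7.18, against −0.06 over all genes tested. Lrrn4, a membrane protein of mesothelium, was at 1.49 to 5.16 CPM in WT and at 1402 to 2354 CPM in the labelled Atxn7l3-/- MEFs (log2 fold change 9.22 ± 0.65 SE, adjusted p = 0.00263). Tcf21, a transcription factor of epicardial and visceral mesenchyme, was at 0.286 to 1.03 and at 115 to 333 CPM (8.73 ± 0.73 SE, adjusted p = 0.0057). Muc16, the large surface mucin of mesothelium, was at 0.265 to 0.906 and at 136 to 275 CPM (8.68 ± 0.61 SE, adjusted p = 0.00263). For these 3 genes no labelled library came near the WT range.

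Of the same list, Wt1, Tbx18, Upk3b, Upk1b, Msln, Bnc1 and Krt18 also rose, whereas Aldh1a2, Lhx9, Krt8 and Krt19 did not pass. Leaving out 1 library at a time kept 8 to 10 genes called, with 8 without WT replicate 3 and 9 without WT replicate 1 or labelled replicate 1. Summed over all 15 genes the level was 88.1 to 103 CPM in WT and 6773 to 10358.5 CPM in the labelled Atxn7l3-/- MEFs. In mESCs 0 of the 11 tested genes of this list were called by edgeR, 5 had an unadjusted p under 0.05, and DESeq2 called 1 higher and 4 lower.

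**Figure D5:**
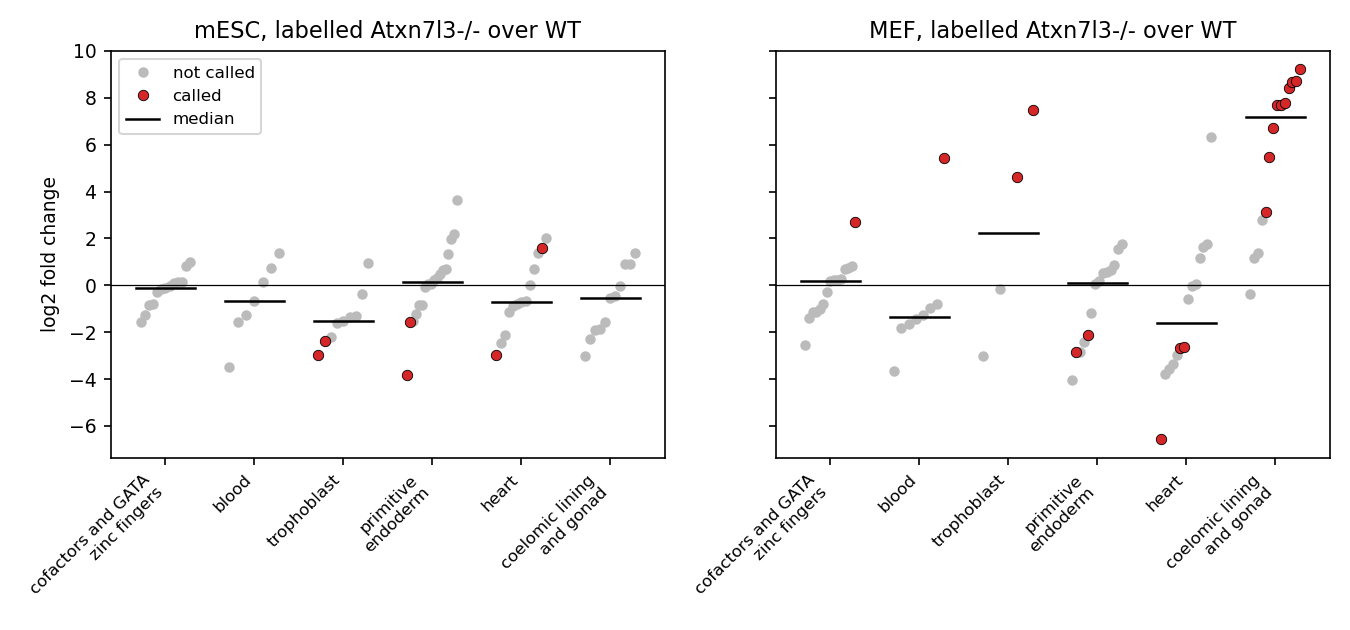
Log2 fold change (vertical axis) of every tested gene of the 6 partner lists, for mESCs on the left and MEFs on the right; each point is a gene, filled red where called, and the bar is the list's median. In MEFs the coelomic lining and gonadal list has a median of 7.18 with 10 of 14 genes called higher, and in mESCs 0 of 11.

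Of 14 heart genes tested in MEFs, 3 fell and none rose, where 4.31% of all genes tested were called lower and 4.62% higher. The median log2 fold change was −1.62. At an unadjusted p under 0.05 there were 2 higher, and DESeq2 called 2 higher and 6 lower. Myh7, a ventricular and slow muscle myosin heavy chain, had 274 counts in the WT and 2 in the labelled libraries (log2 fold change −6.56 ± 1.28 SE, adjusted p = 0.0325). Myl4, the atrial light chain, fell by 2.65 on the log2 scale (± 0.55 SE, adjusted p = 0.0377), but with the replicate block its adjusted p was 0.0506, in a range over 13 alternatives of 2.02e-05 to 0.118. Ryr2, the cardiac calcium release channel, had 81 and 12 counts and fell by 2.65 (± 0.60 SE, adjusted p = 0.0442). Myl7, the other atrial light chain, was at 0.773 CPM in WT and 64.9 CPM in the labelled libraries on average, with overlapping groups (adjusted p = 0.0867). Without any one of WT replicates 1 and 3 and labelled replicates 1 and 2, edgeR called 0 of these genes lower, and without WT replicate 2 it called 1. Without labelled replicate 3 it called 2 higher and 3 lower. Under the replicate block 4 were lower, among them Actc1, the cardiac actin gene, and Myocd, the myocardin gene (adjusted p = 0.0156 and 0.0235).

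Of 14 primitive endoderm genes tested in MEFs, 2 fell and none rose, where 4.31% of all genes tested were called lower and 4.62% higher. The median log2 fold change was 0.12. DESeq2 called 0 higher and 4 lower, and 0 were higher at an unadjusted p under 0.05. With the replicate block 1 was called higher, the growth factor receptor gene Pdgfra (log2 fold change 2.35, adjusted p = 0.0276), which is also a fibroblast marker. Sox7, an endodermal and endothelial SOX factor, was at 0.531 to 1.12 and at 0.0768 to 0.186 CPM (−2.85 ± 0.57 SE, adjusted p = 0.0343). Thbd, the thrombin receptor thrombomodulin, was at 62.3 to 113 and at 14.7 to 26.8 CPM (−2.10 ± 0.32 SE, adjusted p = 0.0177). Both are also made by endothelium, and the 5 endothelial markers summed to 6.38 to 76.8 CPM in WT and to 3.32 to 22.0 CPM in the labelled libraries, whose part was not tested. Without WT replicate 3 or labelled replicate 2, 0 of these genes were called, and without WT replicate 1, labelled replicate 1 or labelled replicate 3 only Thbd was. The basement membrane genes Col4a1, Col4a2, Lamb1 and Lamc1 did not pass.

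Of the trophoblast list 4 genes were tested in MEFs and 2 rose, Krt7 and Prl2c2, where 4.62% of all genes tested were called higher. Krt7, a keratin of simple epithelia that mesothelium also makes, was at 1.12 to 3.66 and at 190 to 576 CPM (7.46 ± 0.68 SE, adjusted p = 0.0062). Prl2c2, a placental prolactin-family hormone, had 4 and 97 counts (4.62 ± 0.81 SE, adjusted p = 0.0247), which near-identical family members may share. It was near the floor in WT and passed the filter on low counts only through the labelled group. Without WT replicate 3, labelled replicate 1 or labelled replicate 2, Prl2c2 was not called. Of 8 blood genes tested 1 rose, where 4.62% of all genes tested were called higher. It was Alas2, the erythroid enzyme of heme synthesis, with 17 and 679 counts (5.42 ± 1.14 SE, adjusted p = 0.0387). Alas2 also passed that filter only through the labelled group. With the replicate block its adjusted p was 0.0656, in a range over 13 alternatives of 9.79e-07 to 0.0991, and without any one of the 3 WT replicates or labelled replicate 1 it was not called. The block called Runx1, a blood stem cell factor gene, lower (log2 fold change −1.63, adjusted p = 0.037). The adult globin genes Hba-a1, Hba-a2, Hbb-bt and Hbb-bs were at 0 in every labelled Atxn7l3-/- MEF library and at 13 summed counts or fewer in WT, and near-identical copies may split their reads.

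Of 15 cofactor and GATA zinc finger genes tested in MEFs 1 rose, where 4.62% of all genes tested were called higher. It was Lmo4, a LIM-only protein that binds LDB1 and GATA complexes. Lmo4 went from 76.6 to 126 CPM in WT to 363 to 1035 CPM in the labelled libraries (2.70 ± 0.42 SE, adjusted p = 0.0194). So small a count is not read as a result about the list. Without WT replicate 1, WT replicate 3 or labelled replicate 1 the adjusted p of Lmo4 was 0.0575, 0.0703 and 0.0576, in a range over 13 alternatives of 1.3e-07 to 0.0703. The FOG genes gave log2 fold changes of 0.83 for Zfpm1 and 0.76 for Zfpm2 with adjusted p of 0.18 and 0.0731. Ldb1, the scaffold of LMO complexes, gave −1.15 (adjusted p = 0.0528). Ldb1 and Tcf3, an E protein gene, were called lower with the replicate block (adjusted p = 0.0303 and 0.0478). Of the 16 genes, 14 to 15 were above the floor in each MEF library, and their summed level was 1357 to 1456 CPM in WT and 1557 to 2172 CPM in the labelled Atxn7l3-/- MEFs.

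Of the 6 list genes called in mESCs, 5 were lower, where 3.41% of all genes tested were called lower and 2.8% higher. Cdx2, a trophoblast and hindgut homeobox factor, was at 4.0 and 6.91 CPM in WT and at 0.18 to 1.11 CPM in Atxn7l3-/- mESCs (−2.99 ± 0.71 SE, adjusted p = 0.0479). Tfap2a, an AP-2 factor of ectoderm and trophoblast, was at 16.2 and 21 CPM and at 2.00 to 5.58 CPM (−2.36 ± 0.47 SE, adjusted p = 0.0333). Both were below WT in every Atxn7l3-/- library, and the trophoblast list had 2 of 9 called lower and none higher (1 higher at an unadjusted p under 0.05, 0 with DESeq2), with a median log2 fold change of −1.51 against 0.04 over all genes tested.

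Of 18 primitive endoderm genes tested in mESCs, 2 were called lower and 0 higher, with 5 higher at an unadjusted p under 0.05 and 2 with DESeq2. Sox7 had 38 counts in WT and 3 in Atxn7l3-/- mESCs (adjusted p = 0.0417), and Lamb1, a laminin subunit of basement membrane, was at 57.1 and 68.7 CPM and at 15.8 to 22.7 CPM (−1.58 ± 0.25 SE, adjusted p = 0.0233). Of 13 heart genes, Myl4 was lower (−2.96 ± 0.51 SE, adjusted p = 0.0279) and Ryr2 higher (1.59 ± 0.38 SE, adjusted p = 0.0499). Of 13 cofactor genes and 7 blood genes none was called. Of the cofactors 5 had an unadjusted p under 0.05 and DESeq2 called 1, and of the blood genes 3 did and DESeq2 called 2. Without either WT mESC replicate, or without Atxn7l3-/- replicate 1, edgeR called 0 of the 71 list genes.

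The genes whose pattern over the 11 libraries was most like that of a member were named by their Pearson correlation of log2 CPM among 19326 genes, as a description. The libraries share cell type, genotype and depth, so that these values carry no test. For Gata4 they were Slco2a1, a prostaglandin transporter (r = 0.97), Nfe2l3 (0.96) and Tep1 (0.95). For Gata6 they were Xdh, which encodes xanthine dehydrogenase (0.99), the overlapping 1010001N08Rik (0.98) and Tcf21 (0.98). For Gata5 they were Gm15527, Tiam1 and Gm13431, each at 0.98. Outside the labelled MEFs Gm15527 averaged at most 0.0231 CPM and Gm13431 at most 0.0597 CPM in any group. Both, like Gata5, were at or near the floor there, so their r rests largely on the labelled MEFs.

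Gata1 followed most closely Gm34653, the T cell receptor subunit gene Cd3d and Slc22a20 (0.99 each), all of them present in mESCs and near the floor in MEFs. With a prior count of 0.5 in place of 2, Gm34653 and Cd3d fell to ranks 43 and 30 for Gata1. Gata2 was most like Polr1d, an RNA polymerase subunit gene (0.95), Bod1 (0.85) and Ube2j2 (0.81), and Gata3 most like AC133192.1 (0.92), Myrip (0.91) and Rasgef1c (0.90). Over the 6 MEF libraries alone the closest were Wt1os, Slc26a11 and Mb21d2 for Gata4, Armt1, Btbd8 and Mpzl2 for Gata5, and 1010001N08Rik, Rpp25 and Tbc1d5 for Gata6. For Gata2 they were Npb, 2700081O15Rik and Klf2, and for Gata3 Rab9b, Gm10687 and Pigl. For all of these r was at least 0.98 over 6 points. Npb averaged 0.0742 CPM in WT and 0.0270 CPM in the labelled MEFs, and Rab9b 0.142 and 0.0362 CPM, at or near the floor. Their r thus rests on few counts, as does that of AC133192.1, which averaged at most 0.199 CPM in any group. With a prior count of 0.5 Wt1os fell to rank 34 for Gata4 and Mpzl2 to rank 56 for Gata5.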

How the data were processed

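Poly(A) RNA libraries of 11 samples were made with a stranded kit, and the deposited tables hold raw read counts per gene, which the authors made with STAR 2.5.3a on mm10 and HTSeq 0.6.1p1 after bcl2fastq 2.17.1.14 and cutadapt 1.10. The annotation and the strand setting of the counting are not given in the sources used here. The authors also deposited a normalized signal, the count divided by a DESeq2 size factor and by median transcript length in kb, used here only for the expression threshold, and their own fold changes and p-values from DESeq2 1.16.1, and these comparisons were not used. Groups came from the labels, and the authors left out a further WT mESC dataset. The mESC lines came from individual blastocysts and the MEFs from individual embryos.

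The members and gene lists were chosen with earlier results of these data known. Counts were fitted in R 4.3.3 with edgeR 4.0.16 (TMM, filterByExpr, quasi-likelihood test) on all genes of each cell type, with Benjamini-Hochberg adjustment over all genes tested. A gene was called at an adjusted p of 0.05 or less and a change of at least 2-fold. WT cell types were compared in a fit of all 11 libraries over the 26398 genes listed in both tables. No test was made of the members between MEF genotypes. In each list up to 3 called genes per direction were named with full values, with others as counts or where a result turned on them. Intervals are 95% exact and cover counting error only, as does the floor of 3 counts. Depth was 34515342 to 49602605 counts. No libraries held identical values. Self-tests used simulated counts.

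Alternatives were RLE scaling, no filter, DESeq2 1.42.0, a replicate block, leaving out each library, 1 fit of all libraries, a GC correction and an added expression threshold of 10 normalized reads per kb. For the replicate block, replicate numbers were taken to pair the libraries, though the labels give only the number, and the main fit used no pairing. Deviations of same-numbered WT and labelled Atxn7l3-/- MEF libraries correlated at 0.47, 0.16 and 0.24, and those of unlike-numbered ones at −0.26 to 0.05. Deviations were taken from each group's mean, which makes these correlations offset each other, so they cannot establish the pairing. A term for Y-linked transcripts (over 1000 counts) was added after the data were seen. Upstream sequences are from RefSeq.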

Additional observations from a re-analysis of the deposited data

Results flagged for a closer look

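Of 64 list and neighbour genes tested in both cell types, 10 had every Atxn7l3-/- library on one side of WT in mESCs and every labelled Atxn7l3-/- library on the other side in MEFs. Of all genes tested, 23.0% in mESCs and 20.1% in MEFs had every Atxn7l3-/- or labelled library above every WT library. The share of all genes with opposite sides was not worked out, so nothing is read from the count of 10. The difference between cell types was not tested. Of the 10 genes, only Ryr2 was called in both, with log2 fold changes of 1.59 in mESCs and −2.65 in MEFs, a difference of −4.25 (adjusted p of 0.0499 and 0.0442, edgeR). Both calls lay near the threshold. In mESCs Ryr2 was not called without Atxn7l3-/- replicate 1 or 3 (adjusted p = 0.14 and 0.0645) or with the replicate block (0.0613). In MEFs leaving out any 1 library lost the call, and over 13 alternatives the adjusted p ran from 0.00918 to 0.131. For the others the mESC change was not called. Lrrn4 had −1.56 (adjusted p = 0.0594) and 9.22, a difference of 10.77. Krt7 had −2.20 (adjusted p = 0.174) and 7.46, a difference of 9.66. Krt18 had −1.92 (adjusted p = 0.0916) and 5.49, a difference of 7.42. Lmo4 had −1.28 (adjusted p = 0.128) and 2.70, a difference of 3.99. Thbd had 1.96 (adjusted p = 0.0674) and −2.10, a difference of −4.06.

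The remaining genes were called in neither cell type. The differences were −3.60 for Slco4a1 (1.25 in mESCs and −2.35 in MEFs), 2.33 for Zfpm2 (−1.57 and 0.76), −2.32 for Itga2b (1.36 and −0.96) and 1.06 for Chd4 (−0.83 and 0.23). Chd4 had an adjusted p of 0.0415 in mESCs with a change under 2-fold. In the MEF comparison the labelled libraries kept much of their Atxn7l3 transcript.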

How the results depend on the processing

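The settings moved counts of called genes and the signs of some members, and the cause was not tested. In mESCs the signs of Gata2, Gata3 and Gata6 changed with the setting, and in MEFs that of Gata2. Between WT cell types those of Gata2, Gata3 and Gata5 changed. The other fitted members kept their direction. Between mESC genotypes, 499 genes were called higher and 607 lower, against 1134 and 1328 with no filter, 1212 and 1123 with DESeq2, and 138 and 292 in 1 fit of all 11 libraries. A term for Y-linked transcripts, chosen after seeing the data, gave 790 higher, and the expression threshold gave 342 lower. Between MEF genotypes, 738 and 688 genes were called, against 1253 and 1949 with DESeq2, 1126 and 1864 in 1 fit, and 143 and 110 with the Y-linked term. Of the list genes in mESCs, 1 higher and 5 lower became 5 and 15 with no filter, 5 and 12 with DESeq2 and 2 and 15 with the Y-linked term. RLE scaling gave 0 higher and 1 fit gave 3 lower. In MEFs, 14 higher and 5 lower became 9 and 0 with the Y-linked term, and the lower ones 16 with DESeq2, 14 in 1 fit and 2 with the expression threshold. The log2 fold change of Gata4 in mESCs was 1.04 with DESeq2 and passed, and that of Gata6 in MEFs was 5.71 with the GC correction. The Y-linked term leaves 1 Atxn7l3-/- library with such transcripts to set the mESC difference. Levels per kb of the longest coding transcript were also chosen after seeing the data, as were the genes of either table.

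With the replicate block, 1323 genes were called lower in MEFs, and of the list genes 9 were lower there and 2 higher in mESCs. Replicate numbers share only a number in mESCs, where same-numbered libraries correlated at 0.01 and −0.17. There the block gave 1.97 for Gata1, which passed, and the opposite sign for Gata3 (0.38) and Gata6 (0.22), neither of which passed.

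Leaving out 1 library at a time gave 0 to 833 genes higher and 0 to 993 lower in mESCs, 120 to 952 and 77 to 1036 in MEFs, and 2936 to 4617 higher in WT MEFs than in WT mESCs. List genes ranged from 0 to 3 higher and 0 to 7 lower in mESCs and from 9 to 17 and 0 to 9 in MEFs. Log2 fold changes in mESCs ran from 1.13 to 1.99 for Gata1, −1.55 to 0.34 for Gata2, −0.57 to 0.86 for Gata3 and −0.97 to 0.56 for Gata6. In MEFs they ran from 4.87 to 6.49 for Gata4 and 7.19 to 8.29 for Gata5. Between WT cell types they ran from −0.65 to 0.25 for Gata2, −0.68 to 0.72 for Gata3, −1.88 to −0.25 for Gata4, −1.67 to 3.15 for Gata5 and 2.08 to 3.10 for Gata6. With 2 WT mESC libraries, leaving one out assumes that the other varies like the remaining group. Gata1 in MEFs and Gata5 outside the labelled Atxn7l3-/- MEFs were too few counts for a change to be detectable.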
